A study of Mus musculus with 4 samples.

Results

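Satellite cells that carried RNA of the peptide ligands Nppc or Edn3 were examined in single-cell RNA sequencing of regenerating mouse muscle. They were chosen by a rule on unique molecular identifiers (UMIs, 1 per captured RNA molecule). A cell had to hold at least 5000 UMIs, at least 1000 genes and at most 10% mitochondrial UMIs, no UMI of Myog or Cd74, at least 1 UMI of Pax7 and at least 2 UMIs of Nppc and Edn3 together. Per 10000 UMIs of the cell, the proliferation genes Top2a, Mki67, Cenpf, Rrm2 and Tyms had to sum to less than 1 and the interferon-induced genes Iigp1 and Gbp2 to less than 3. The rule selected 373 of 10450 cells that passed the limits on UMIs and genes (3.57%), out of 16519 barcodes in the files. Before the requirement for the ligands 1530 cells were left, called gated Pax7 cells here, so the selected cells, called ligand-positive cells, made up 24.4% of them. Of the remainder, 943 gated Pax7 cells held no UMI of either ligand (ligand-negative cells) and 214 held 1 UMI.

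The study asked what the loss of the microRNA miR-501 does to muscle progenitors during repair. Tibialis anterior muscles of 12-week-old mice were injured by injected cardiotoxin, a venom component that kills fibres and spares satellite cells, and collected 6 days later. Live single cells were sorted for alpha7 integrin and against CD45, CD31 and Sca1, and sequenced with 10x Genomics 3′ chemistry. The 4 libraries comprised 2 of Pax7Cre control mice and 2 of Pax7CremiR-501fl/Y mice (miR-501KO), each pooled from 3 mice, and replicate 1 of both groups was run 1 and replicate 2 run 2. All mice carried the Cre recombinase driven by Pax7, so deletion was directed to cells that express or once expressed Pax7, and no library came from mice without Cre. The libraries held 73665012 to 117527749 UMIs and 1829 to 3439 cells past the limits on UMIs and genes. The gene list contains 0 entries for Mir501 and the chemistry reads polyadenylated ends, so the deletion could not be checked in these files. Of the barcodes of ligand-positive cells, 1 also occurred among the cells of another library and 0 were ligand-positive in more than 1 library.

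Nppc encodes C-type natriuretic peptide, which acts through the guanylyl cyclase receptor Npr2 to raise cyclic GMP and is cleared by Npr3. Edn3 encodes endothelin 3, a vasoactive peptide that is released from its precursor by endothelin-converting enzymes and acts on the G protein-coupled receptors Ednra and Ednrb. Satellite cells, the stem cells of muscle, are marked by the transcription factor Pax7, turn on Myod1 on activation and Myog on differentiation, and return in part to quiescence as repair proceeds.

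The sequences of the deleted microRNA are shown because they name the element that separates the groups. Both arms come from RefSeq (build GRCm38.p6, minus strand), with the 3p arm at chrX:7241270-7241291 and the 5p arm at chrX:7241307-7241328. Capitals mark the seed, and the seeds of the arms differ.
mmu-miR-501-3p: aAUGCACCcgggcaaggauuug
mmu-miR-501-5p: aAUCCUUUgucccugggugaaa

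The promoters of both ligand genes are shown because their RNAs chose the cells and, as described next, occurred together in single cells more often than by separate draws. Each run covers the 250 bases before the first RefSeq start of the gene in GRCm38.p6, for Nppc at chr1:86670574-86670823 on the minus strand and for Edn3 at chr2:174760369-174760618 on the plus strand. Capitals mark matches to the letters of TATA boxes (TATAAA), E-boxes (CAGCTG), CRE-like elements (TGACNTCA) and GC boxes (GGGCGG), each searched on both strands.
Nppc: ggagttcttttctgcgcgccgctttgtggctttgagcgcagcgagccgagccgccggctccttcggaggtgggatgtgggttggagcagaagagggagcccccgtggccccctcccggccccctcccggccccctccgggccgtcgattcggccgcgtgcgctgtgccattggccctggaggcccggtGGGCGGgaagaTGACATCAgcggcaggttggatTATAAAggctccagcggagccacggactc
Edn3: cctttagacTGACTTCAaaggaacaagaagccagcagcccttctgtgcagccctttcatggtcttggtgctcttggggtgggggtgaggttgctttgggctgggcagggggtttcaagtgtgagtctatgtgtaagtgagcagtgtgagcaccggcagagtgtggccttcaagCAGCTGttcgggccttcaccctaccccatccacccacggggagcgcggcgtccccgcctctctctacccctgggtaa

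The Nppc window held a TATA box whose first base lay at position -29 from the start, a CRE-like match (TGACATCA) at -51 and a GC box at -62. The Edn3 window held an E-box at -77 and a CRE-like match (TGACTTCA) at -241. Among 32851 promoter windows of the same table, 7.49% held the CRE-like letters, 12.4% the TATA box, 13.0% the E-box and 32.7% the GC box. The letters TGANTCA of AP-1 sites (6.75% of windows) and TGGGAA of RBPJ sites (21.6% of windows) occurred in neither. A match is a description of these letters and was not tested for binding.

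Levels of the ligands themselves were fixed by the choice of cells and are given as a description. In CPM (UMIs of a gene per 1e+06 UMIs) of the ligand-positive cells, Nppc stood at 86.4 and 70.4 in the Pax7Cre libraries and at 94.7 and 182.5 in the miR-501KO libraries, replicate 1 first as in every list of 4 values here. Edn3 stood at 92.3, 95.3, 80.1 and 99.8 CPM. Replicate 2 of miR-501KO had the highest level of both ligands, with a wider gap for Nppc. Single cells held up to 43 UMIs of Nppc and up to 11 of Edn3. Just inside the limit, 122 ligand-positive cells held exactly 2 UMIs of the ligands, 142 held 3 to 5 and 109 held more, while the 214 cells with 1 UMI lay just outside it.

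Nppc and Edn3 overlapped in the same cells. Among the 1530 gated Pax7 cells, 295 (19.3%) held Nppc, 452 (29.5%) held Edn3 and 160 held both, where 87.2 would hold both if the genes were drawn separately. Edn3 was found in 54.2% of cells with Nppc and in 23.6% of cells without it. The odds ratio was 3.83 over all cells and 3.26, 2.89, 4.24 and 4.36 in the 4 libraries, so it exceeded 1 in each. Cells of 1 library share their source and these ratios carry no test. Of the ligand-positive cells, 160 (42.9%) held both ligands, 141 (37.8%) only Edn3 and 72 (19.3%) only Nppc. The rule raises the share with both, since 1 UMI of each ligand sufficed while a cell with only 1 ligand needed 2 UMIs. Among gated Pax7 cells without that limit, 160 held both, 292 only Edn3 and 135 only Nppc. Among ligand-positive cells the share with both was 40.5%, 34.4%, 38.1% and 51.8% by library, highest in replicate 2 of miR-501KO.

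**Figure D1:**
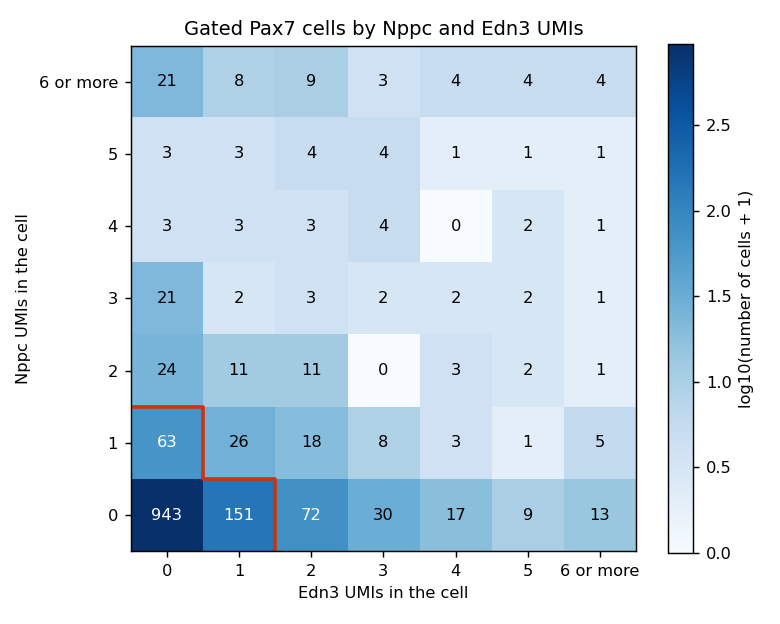
Number of gated Pax7 cells (colour) at each combination of Edn3 UMIs (horizontal axis) and Nppc UMIs (vertical axis) in a cell, over the 4 libraries. Of 1530 cells, 943 held neither ligand and 160 held both, and Nppc reached 43 UMIs where Edn3 reached 11.

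The ligands were found in Pax7 cells with and without proliferation RNA and were rare in other cells of the sort. At least 2 ligand UMIs occurred in 23.5% of 1395 cycling Pax7 cells and in 33.5% of 158 Pax7 cells excluded for interferon genes. They occurred in 1.44% of 1457 Myog cells without Pax7, in 1.43% of 210 cells marked as mural and in 0.746% of 134 cells marked as Schwann. Among 208 macrophage-marked cells 0 reached 2 UMIs, which allows a share of up to 1.44% by counting error alone over the pooled cells, and the sum over them was 0 UMIs of Nppc and 1 of Edn3. These cells were shallower, with library medians of 15350 to 19568 UMIs against 23675 to 29471 in gated Pax7 cells, and the Myog cells without Pax7 reached medians of 14871 to 40624.

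The ligand levels of gated Pax7 cells were set against those of cycling Pax7 cells. Nppc stood at 16.0, 16.3, 18.9 and 53.6 CPM in gated cells and at 9.88, 13.0, 15.5 and 27.4 CPM in cycling cells. Gated cells were higher in 4 of 4 libraries, on average 1.48-fold (log2 difference 0.57, SEM 0.16), with p = 0.125 in an exact two-sided sign-flip test, the smallest p that 4 libraries allow. Edn3 stood at 19.3, 23.7, 17.8 and 32.1 CPM in gated cells and at 14.2, 21.8, 18.9 and 16.4 CPM in cycling cells. It was higher in 3 of 4 libraries (log2 difference 0.36, SEM 0.23, exact sign-flip p = 0.25), which is within the spread between libraries.

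The ligand-positive cells carried satellite cell RNA throughout. All 16 genes of a satellite cell marker list were detected in each library, and 100% of the cells held at least 3 UMIs of them. The list includes Pax7, which the rule required, Chodl, and Itga7, the integrin of the sort. Ligand-negative cells gave the same 16 genes and 100% in each library, so these values do not set the groups apart. Macrophage markers summed to 32.4, 20.7, 22.2 and 10.6 CPM, with 8 of 10 markers detected per library and Ptprc at 0 in all 4. In ligand-negative cells the same markers summed to 205, 23.2, 368 and 286 CPM. Schwann markers (12.9 to 21.1 CPM) and endothelial markers (7.77 to 12.4 CPM) were low in ligand-positive cells, with Sox10 and Foxd3 at 0 in every library. Mural markers summed to 69.1, 50.1, 69.0 and 43.5 CPM in ligand-positive cells and to 48.6, 35.4, 76.2 and 43.4 CPM in ligand-negative cells, with 6 or 7 of 7 markers detected, and 14.9 to 30.2% of ligand-positive cells held at least 3 of their UMIs.

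Markers of fibroblasts were an exception. Their sum was 151, 256, 160 and 221 CPM in ligand-positive cells and 40.9, 41.6, 160 and 58.8 CPM in ligand-negative cells, with 4 to 6 of 7 markers detected. Col15a1 and Dpt made up most of it. Pdgfra, which defines these cells, was at 0 in 3 of 4 libraries with 1 UMI in the other, and Dcn stood at 1.08, 1.66, 1.75 and 8.71 CPM. Tenocyte markers summed to 4.32, 9.11, 8.19 and 6.84 CPM, lower than the 39.0, 34.7, 86.3 and 53.2 CPM of ligand-negative cells, where Scx alone gave 34.6, 30.02, 33.3 and 43.8 CPM.

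The share of ligand-positive cells was compared between the genotypes over libraries. They made up 19.1% (95% Wilson interval 15.6 to 23.1%) and 24.6% (20.5 to 29.3%) of gated Pax7 cells in the Pax7Cre libraries. The miR-501KO libraries had 19.6% (15.6 to 24.2%) and 32.9% (28.7 to 37.5%). Intervals cover counting error only. The group means were 21.8% ± 2.75 (SEM, n = 2) and 26.3% ± 6.69 (SEM, n = 2), a difference of 4.42 percentage points with p = 0.667 in an exact two-sided permutation test, whose smallest possible p here is 0.333. Within run 1 the difference was 0.483 points and within run 2 it was 8.35 points, so most of it lay in run 2.

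Depth was set beside these shares, and its part in them was not tested. The median ligand-positive cell held 22920, 25956, 27599 and 20829 UMIs. The median gated Pax7 cell held 25756, 29471.5, 27160.5 and 23675 UMIs. Both were lowest in the library with the highest share, and among the other libraries the medians of gated cells ranked as the shares did. When every cell was thinned to 5000 UMIs and 1 ligand UMI was enough, the shares were 15.9%, 17.2%, 14.3% and 28.7%. The difference within run 1 was then -1.66 points and that within run 2 was 11.5 points. Replicate 2 of miR-501KO thus had the highest share in this setting too. With the limit of 1 ligand UMI and no thinning the difference within run 1 was -4.11 points and that within run 2 was 7.85 points, so the sign of run 1 turned with the limit alone.

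**Figure D2:**
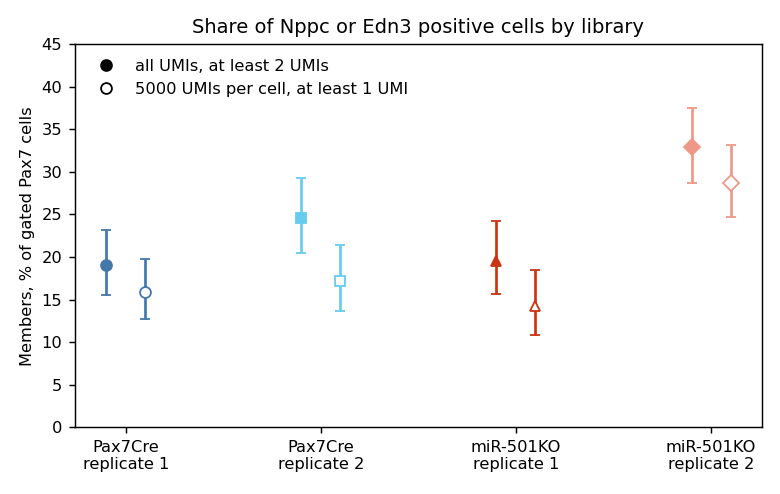
Ligand-positive cells as a percentage of gated Pax7 cells (vertical axis) in each of the 4 libraries (horizontal axis), with filled points for all UMIs, open points for cells thinned to 5000 UMIs, and bars for 95% Wilson intervals. Replicate 2 of miR-501KO lies highest in both, at 32.9% and 28.7%.

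The remaining marker genes named for these cells were higher in ligand-positive than in ligand-negative cells of every library. They were picked because they mark these cells, so their values carry no test. From here on levels are CPM after scaling of the libraries by TMM (trimmed mean of M values). Chodl, which encodes the membrane lectin chondrolectin, had 247, 261, 275 and 370 CPM in ligand-positive cells and 35.0, 43.5, 56.2 and 56.0 CPM in ligand-negative cells. It was found in 82.6% of the former and 29.2% of the latter. Lpar4, a receptor for lysophosphatidic acid, had 137, 124, 133 and 160 CPM against 44.6, 44.4, 43.3 and 45.9 CPM. The lowest ligand-positive library thus lay above the highest ligand-negative library for both genes.

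Gpc3, a cell surface glypican, had 328, 363, 308 and 330 CPM against 94.1, 128, 127 and 130 CPM. Htra3, a secreted serine protease, had 343, 276, 277 and 353 CPM against 156, 158, 144 and 154 CPM. Pax7 itself, of which the rule required 1 UMI in all cells, had 204, 243, 230 and 239 CPM against 149, 159, 170 and 158 CPM, a ratio of 1.35 to 1.54. The groups did not overlap for any of the 3 genes, with the smallest ratio for Pax7.

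These levels were graded with the number of ligand UMIs. As means of the 4 libraries in unscaled CPM, Chodl went from 48.2 in cells without ligand UMIs to 210 with 1 UMI, 258 with 2, 233 with 3 to 5 and 401 with 6 or more. Lpar4 stood at 44.8, 93.9, 104, 126 and 185 CPM and Gpc3 at 121, 269, 290, 323 and 376 CPM over the same bins. The cells just outside the limit were thus closer to the ligand-positive cells than to the cells without ligand UMIs for Chodl and Gpc3. Myf5, an early myogenic factor, went from 246 to 356, 454, 453 and 455 CPM, with no further increase past 2 UMIs. Htra3 stood at 154, 275, 296, 321 and 328 CPM. Pax7 stood at 160, 218, 210, 219 and 250 CPM, with little change from 1 to 5 UMIs. Myod1 went from 43.2 to 21.8, 9.96, 10.8 and 7.22 CPM, and Spp1, the secreted phosphoprotein osteopontin, from 2097 to 829, 464, 234 and 246 CPM. In miR-501KO replicate 1 Myod1 did not fall steadily, at 32.4, 38.4, 0, 27.2 and 15.4 CPM. The bins hold 109 to 943 cells, and at least 15 from each library.

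**Figure D3:**
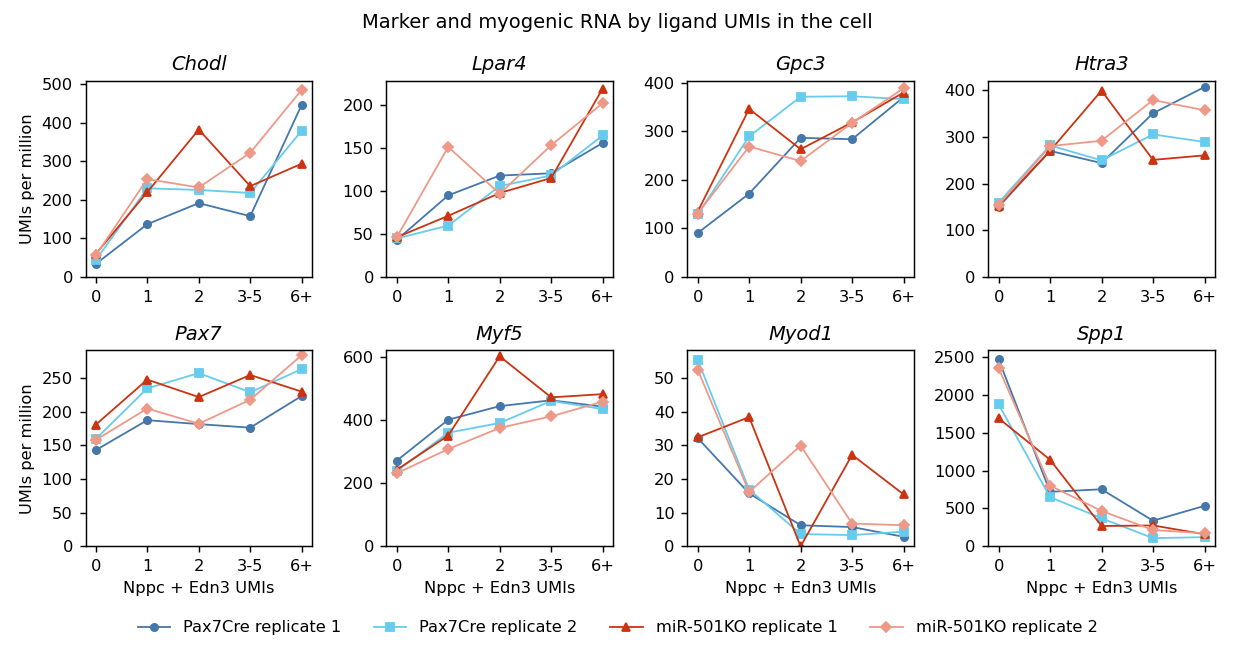
Level of 8 genes in CPM without TMM scaling (vertical axes, each from 0) against the number of Nppc and Edn3 UMIs in the cell (horizontal axis), with 1 line per library. Chodl, Lpar4 and Gpc3 increase over the bins in the mean of libraries with a dip of Chodl at 3 to 5, while Myod1 goes from 43.2 to 7.22 CPM and Spp1 from 2097 to 246 CPM.

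Ligand-positive and ligand-negative cells were then compared across all other genes. UMIs were summed per library and cell group and tested with edgeR's quasi-likelihood test with the library as a term, with adjusted p the Benjamini-Hochberg value over 11023 genes. At an adjusted p under 0.05, 1232 genes were higher (11.2% of those tested) and 1260 lower (11.4%) in ligand-positive cells. The cells of both groups came from the same libraries, so each library served as its own comparison. The p-values measure how much the difference within a library varied over these 4 libraries. The 23 genes described next for their large differences were chosen among called genes with the same direction in 4 of 4 libraries. That agreement is therefore part of the choice. Where groups of libraries do not overlap, this describes single genes, many of them chosen for large differences. The share of such genes over all genes tested is not given, so non-overlap adds nothing to the calls.

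The gene with the largest increase among those at a mean of at least 5 log2 CPM was Col15a1, which encodes a basement membrane collagen. It had 114.5, 167, 74.1 and 148 CPM in ligand-positive cells and 15.0, 9.07, 17.8 and 17.8 CPM in ligand-negative cells, with no overlap. The log2 difference was 3.08 (SE 0.16, edgeR adjusted p = 3.4e-13, 8.47-fold). It was found in 50.7% of ligand-positive and 12.1% of ligand-negative cells.

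Dpt, Prelp, Rarres2 and Rtl3 were also among the genes with large increases. Dpt, the matrix protein dermatopontin, had 44.1, 77.2, 73.6 and 65.4 CPM against 13.6, 14.7, 20.5 and 19.3 CPM (log2 difference 1.94, SE 0.11, edgeR adjusted p = 1.1e-12). Prelp, a leucine-rich proteoglycan, differed by 1.73 (log2, SE 0.10) and Rarres2, the chemoattractant chemerin, by 1.71 (SE 0.10). Rtl3, a gene derived from a retrotransposon, differed by 1.73 (SE 0.09). For each of these 4 genes the groups of libraries did not overlap.

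Fast fibre genes made up the rest of the genes that increased most. Tnnc2, fast troponin C, had 85.8, 90.2, 180 and 141 CPM against 24.3, 19.2, 39.9 and 36.0 CPM (log2 difference 2.05, SE 0.08, edgeR adjusted p = 1.4e-15). Mylpf and Myl1, fast myosin light chains, differed by 1.73 (SE 0.07) and 1.63 (SE 0.08). Tnni2 and Tnnt3, fast troponins I and T, differed by 1.72 (SE 0.10) and 1.65 (SE 0.09), and Acta1, skeletal actin, by 1.66 (SE 0.08). Mylpf was found in 79.4% of ligand-positive cells, Acta1 in 76.7% and Tnnc2 in 57.6%.

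With Ckm, muscle creatine kinase, the 7 fast fibre genes summed to 729, 731, 1415 and 1052 unscaled CPM in ligand-positive cells and to 254, 247, 375 and 296 unscaled CPM in ligand-negative cells. The median ligand-positive cell held 9, 7, 11 and 7 of these UMIs and the median ligand-negative cell 5, 6, 5 and 3. In ligand-positive cells the 3 cells with the most held 25.6%, 42.8%, 52.7% and 32.6% of the UMIs. The same sum reached 234 to 375 CPM in macrophage-marked cells of the same libraries, which belong to another lineage. In mural-marked cells it was 108 to 213 CPM and in Schwann-marked cells 150 to 325 CPM. In Pax7 cells excluded for interferon genes and without ligand UMIs (12 to 21 per library) it was 186, 201, 467 and 1191 CPM. It thus lay below ligand-positive cells in each library but miR-501KO replicate 2, where it lay above them. The part of RNA from fibres in the differences was not tested. In a fit chosen after seeing the data, which left out all cells with 30 or more of these UMIs and so removed the highest cells by construction, the log2 difference was 1.08 for Tnnc2, 0.75 for Acta1 and 0.45 for Tnni2, and all 7 genes were still called (highest edgeR adjusted p = 0.047, for Tnni2).

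Spp1 was among the genes lower in ligand-positive cells. It had 603, 197, 233 and 275 CPM against 2570, 1866, 1593 and 2357 CPM (log2 difference -2.79, SE 0.11, edgeR adjusted p = 1.3e-15). Fn1, fibronectin, had 165, 114, 154 and 128 CPM against 568, 457, 618 and 606 CPM (log2 difference -2.02, SE 0.07, edgeR adjusted p = 6.4e-17). Cilp, a cartilage matrix protein, had 7.05, 6.10, 3.37 and 4.77 CPM against 43.3, 50.04, 70.7 and 34.5 CPM (log2 difference -3.16, SE 0.17). No library of ligand-positive cells reached the lowest ligand-negative library for these 3 genes.

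Tnnt2, cardiac troponin T, which embryonic and regenerating muscle also makes, had 28.8, 15.4, 19.1 and 19.4 CPM against 215, 108, 110 and 132 CPM (log2 difference -2.77, SE 0.09, edgeR adjusted p = 6.4e-17). Myod1, the myogenic factor of activated cells, had 5.87, 3.66, 16.8 and 13.3 CPM against 33.5, 55.3, 30.5 and 52.6 CPM (log2 difference -2.16, SE 0.22, edgeR adjusted p = 2.7e-08). It was detected in 12.3% of ligand-positive and 32.0% of ligand-negative cells. The actin-binding Cotl1 fell by 2.67 on the log2 scale (SE 0.14), the myosin light chain Myl9 by 2.54 (SE 0.12), the surface protein Tm4sf1 by 2.50 (SE 0.14) and the integrin-binding Edil3 by 2.35 (SE 0.14). Ass1, an enzyme of arginine synthesis, fell by 2.18 (SE 0.14).

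Lyz2, the lysozyme of myeloid cells, had the most negative difference and rested on few cells. It had 13.5, 6.91, 8.42 and 5.08 CPM in ligand-positive cells and 124, 8.94, 212 and 111 CPM in ligand-negative cells (log2 difference -3.70, SE 0.24, edgeR adjusted p = 1.2e-11). The 3 ligand-negative cells with the most held 863 of 928, 1397 of 1479 and 715 of 744 Lyz2 UMIs in Pax7Cre replicate 1 and both miR-501KO libraries, and 9 of 67 in Pax7Cre replicate 2. Among cells of 15000 to 40000 UMIs the difference was -0.27 (edgeR adjusted p = 0.56).

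**Figure D4:**
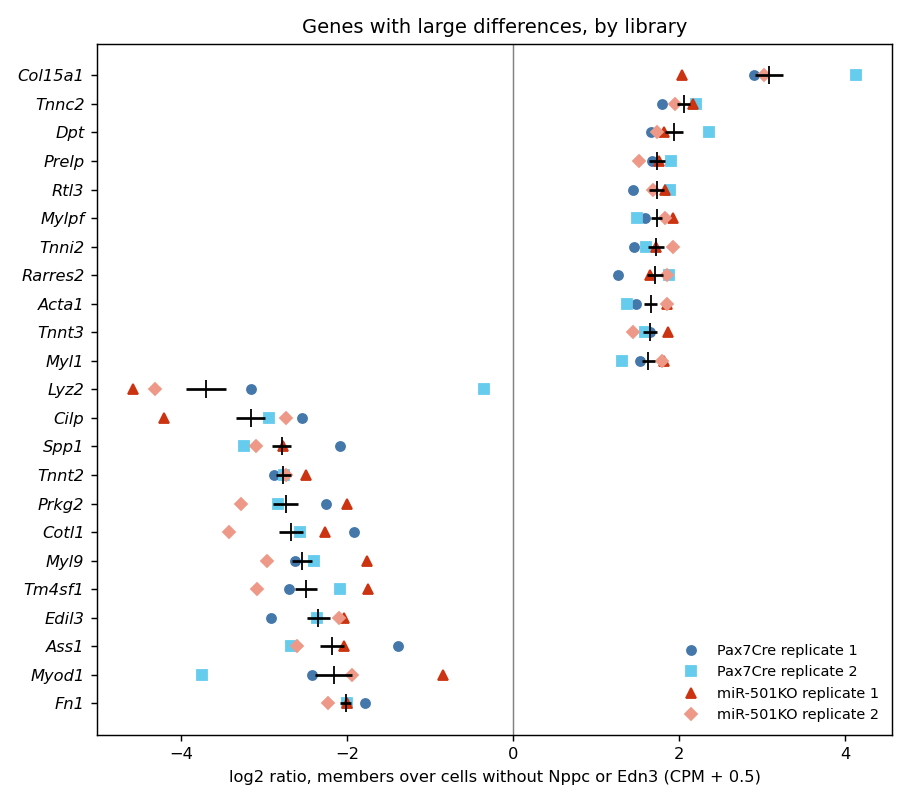
Log2 ratio of ligand-positive over ligand-negative cells (horizontal axis, TMM-scaled CPM with 0.5 added to both) for 23 genes with large differences (vertical axis), with 1 point per library and black ticks and bars for the edgeR estimate ± SE. The 11 increased and 12 decreased genes were chosen for the same direction in every library, and the 4 points of Lyz2 are spread most widely.

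Downstream of the ligand Nppc, the receptor side of the pathway was measured at low levels. Npr2, the receptor of C-type natriuretic peptide, was detected in 26.5% of ligand-positive and 24.1% of ligand-negative cells. It had 8.81, 14.2, 19.1 and 12.1 CPM against 9.35, 9.34, 11.8 and 8.02 CPM, with overlap and the opposite order in Pax7Cre replicate 1 (log2 difference 0.50, SE 0.18, edgeR adjusted p = 0.044). That call was lost in DESeq2, without the library term and under several other settings. Npr1, the receptor of the related heart peptides, gave 2 UMIs in all 373 ligand-positive cells and the clearance receptor Npr3 gave 1.

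Among the enzymes of the pathway, Prkg2, the cyclic GMP-dependent protein kinase II, was lower in ligand-positive cells. It had 11.2, 7.31, 12.4 and 7.62 CPM against 55.2, 55.3, 50.9 and 78.3 CPM (log2 difference -2.74, SE 0.15, edgeR adjusted p = 5.8e-13), and was found in 12.1% against 46.4% of cells. Pde3a, a phosphodiesterase that cyclic GMP inhibits, was higher, with 26.4, 18.3, 13.5 and 15.9 CPM against 2.81, 3.60, 5.02 and 3.27 CPM (log2 difference 2.32, SE 0.23, edgeR adjusted p = 2.0e-08). Neither gene overlapped between the groups of libraries.

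Mme, the protease neprilysin that degrades natriuretic peptides, had 5.87, 3.66, 5.05 and 2.54 CPM against 14.8, 17.4, 9.18 and 15.0 CPM (log2 difference -1.83, SE 0.24, edgeR adjusted p = 2.8e-06). Furin, which cleaves the precursor of the peptide, was lower by less (log2 difference -0.51, SE 0.08, edgeR adjusted p = 1.8e-05). Pde5a, which hydrolyses cyclic GMP, differed by 0.37 (SE 0.12, edgeR adjusted p = 0.028), a call that DESeq2 did not make. Of the 13 genes listed for the pathway 7 were tested, of which 3 were higher and 3 lower, with a median log2 difference of -0.32 against 0.01 over all genes. Pde2a was not called (log2 difference -0.32, SE 0.27). Against the 63 Pax7 cells with interferon RNA and no ligand UMI, compared further below, 5 genes of the pathway were tested. Of these, 0 were called, with a median log2 difference of 0.03.

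For endothelin 3, only 1 of 7 listed genes could be tested. Ece1, an endothelin-converting enzyme, had 52.3, 51.6, 43.2 and 51.8 CPM in ligand-positive cells and 75.9, 83.8, 90.9 and 85.1 CPM in ligand-negative cells (log2 difference -0.75, SE 0.09, edgeR adjusted p = 2.7e-07). The receptor Ednra gave 9 UMIs in 8 of 373 ligand-positive cells and Ednrb gave 2 UMIs in 2 cells. Ednra was found in 5.09% of the 943 ligand-negative cells, and the converting enzyme Ece2 gave 7 UMIs in ligand-positive cells. Against Pax7 cells with interferon RNA and no ligand UMI, the 1 endothelin gene tested was not called (log2 difference -0.03).

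Receptors, enzymes and relatives of the marker genes were compared in the same fit. Of 7 tested genes of the lysophosphatidic acid pathway, 2 were higher and 1 lower (median 0.08). Enpp2, the enzyme autotaxin that makes the lipid, had 9.99, 10.6, 9.54 and 10.2 CPM against 3.21, 5.34, 3.73 and 4.61 CPM (log2 difference 1.24, SE 0.23). Plpp3, a phosphatase that degrades it, differed by 1.24 (SE 0.11) and the receptor Lpar3 by -0.90 (SE 0.21). Of 9 glypicans, syndecans and HtrA proteases tested beside Gpc3 and Htra3, Htra1 (0.54) and Sdc4 (0.17) were higher, while Gpc6 (-0.80) and Sdc1 (-0.33) were lower, with a median of -0.15.

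Genes of satellite cell identity and quiescence were higher in 13 of 21 cases and lower in 1, with a median log2 difference of 0.29 against 0.01 over all genes. Calcr, the calcitonin receptor of quiescent satellite cells, had 4.70, 5.69, 6.74 and 7.31 CPM against 0.40, 0.13, 0.57 and 0.59 CPM (log2 difference 3.79, SE 0.41, edgeR adjusted p = 9.6e-08). It was found in only 10.7% of ligand-positive cells and 1.06% of ligand-negative cells. Cd34, a surface sialomucin, differed by 2.05 (SE 0.26) and Spry1, an inhibitor of growth factor signalling, by 0.87 (SE 0.09). Myf5 had 492, 422, 487 and 430 CPM against 283, 238, 229 and 232 CPM (log2 difference 0.90, SE 0.06, edgeR adjusted p = 6.7e-12), so its groups did not overlap. Des, desmin, was the gene that was lower (log2 difference -0.49, SE 0.05), and Pax3, Itga7 and Cxcr4 were among the 7 not called.

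Of 16 tested genes of the Notch pathway, 8 were higher and 1 lower (median 0.37). Hey1, a target of Notch, had 42.9, 34.9, 47.2 and 57.8 CPM against 13.4, 14.1, 14.2 and 19.6 CPM (log2 difference 1.56, SE 0.11, edgeR adjusted p = 7.0e-11). Nrarp, a feedback regulator, differed by 2.03 (SE 0.28), with a wide spread from 4.88 to 20.0 CPM over the ligand-positive libraries. Lfng, which modifies the receptors, differed by 1.73 (SE 0.38) and Notch1, Notch3 and Jag1 by 0.71, 0.67 and 0.77. Hes6 was lower (-0.38, SE 0.10). The target Hes1 was not called, at 109, 77.6, 102 and 192 CPM against 92.9, 105, 147 and 112 CPM.

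Genes of commitment and differentiation split in direction, with 9 higher and 7 lower of 22 tested (median 0.14). The genes that were higher were the fast fibre genes Ckm, Tnnc2, Mylpf, Acta1, Tnnt3 and Myl1 with Actc1, Myl4 and the adhesion molecule Cdh15. Lower were Tnnt2, Myod1, the slow troponins Tnni1 (-1.35, SE 0.15) and Tnnt1 (-0.32, SE 0.08), the transcription factor Mef2c (-1.03, SE 0.26), and the giant sarcomere proteins nebulin (Neb, -0.94, SE 0.08) and titin (Ttn, -0.67, SE 0.06). The fusion proteins Mymk and Mymx were not called.

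Of 28 immediate early and stress genes, all tested, 20 were higher in ligand-positive cells and 0 lower at an adjusted p under 0.05 in edgeR (median 0.72). The count stayed at 19 to 21 higher and 0 lower in the alternatives computed for this list. Fos had 1723, 1932, 1822 and 2549 CPM against 716, 970, 640 and 1027 CPM (log2 difference 1.27, SE 0.06, edgeR adjusted p = 5.4e-14). Atf3 differed by 1.43 (SE 0.11), Zfp36 by 1.30 (SE 0.07) and Egr1 by 1.30 (SE 0.06). Jund, Klf2, Klf6 and Ier3 were among the 8 genes not called. Quality measures moved with this list. The median mitochondrial share of ligand-positive cells was 4.68%, 3.91%, 4.65% and 4.10%, against 4.20%, 3.70%, 4.44% and 3.81% in ligand-negative cells. The median depth of ligand-positive cells, given above, was lower than the 27031, 32778, 27602 and 27777 UMIs of ligand-negative cells, by 3 UMIs in miR-501KO replicate 1. Among cells of 15000 to 40000 UMIs and after thinning to 5000 UMIs, 19 of the 28 genes were higher in each. The part of the mitochondrial share in this list was not tested.

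Matrix genes went both ways, with 9 higher and 14 lower of 25 (median -0.42). Against Pax7 cells with interferon RNA and no ligand UMI, 9 of the 25 were higher and 2 lower (median 0.38). The sign of the median thus depended on the cells compared. Beside Spp1 and Fn1, Acta2, smooth muscle actin, had 597, 438, 474 and 487 CPM against 1826, 1476, 1116 and 1790 CPM (log2 difference -1.63, SE 0.07), and Tnc, tenascin C, differed by -1.63 (SE 0.07) too. The basement membrane genes Col4a1 (0.997, SE 0.06), Col4a2 (0.91, SE 0.05), Lamb1 (0.85, SE 0.06) and Lama2 (0.73, SE 0.06) were higher, as was the matricellular gene Ccn1 (1.10, SE 0.10). Col1a1 (-0.42) and Col1a2 (-0.25), chains of fibrillar collagen, were lower and Col3a1 (0.33) was higher.

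Further secreted ligands accompanied Nppc and Edn3. Of 17 tested genes of the Id, BMP and TGF-beta group, 9 were higher and 2 lower (median 0.32). Bmp4 had 13.5, 22.4, 35.4 and 44.8 CPM against 3.07, 5.34, 5.45 and 8.77 CPM (log2 difference 2.34, SE 0.16, edgeR adjusted p = 3.0e-11), and Bmp6 had 27.0, 20.3, 29.8 and 30.5 CPM against 4.01, 7.47, 6.88 and 6.39 CPM (2.10, SE 0.18). Bmp4 was found in 30.3% of ligand-positive and 10.3% of ligand-negative cells. Id3, an inhibitor of myogenic factors, differed by 1.37 (SE 0.05), Tgfbr3 by 1.17 (SE 0.08) and the receptor Tgfbr2 by -0.69 (SE 0.09).

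Of 24 other secreted ligands tested, 10 were higher and 3 lower (median 0.24). Against Pax7 cells with interferon RNA and no ligand UMI, 1 of 14 tested was higher and 2 were lower (median 0.25). Ntf3, neurotrophin 3, had 3.52, 6.91, 3.37 and 8.58 CPM against 0.40, 0.67, 1.43 and 1.04 CPM (log2 difference 2.66, SE 0.39, edgeR adjusted p = 9.0e-06) and was found in 11.3% against 2.44% of cells. Igf2 and Wnt4, both growth factors, differed by 1.44 (SE 0.14 and 0.26) and Pgf, placental growth factor, by -0.97 (SE 0.27). Ccl19, a chemokine, was higher in 3 of 4 libraries (1.36, SE 0.22), with Pax7Cre replicate 1 the other way. Of 9 insulin-like growth factor receptors and binding genes, 4 were higher and 3 lower (median 0.13), with Igfbp6 at -1.78 (SE 0.17) and Igfbp2 at -1.59 (SE 0.27).

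For the cell cycle and the interferon response the rule had already removed the cells with the most RNA of 5 and 2 genes. Of 18 other cell cycle genes tested, 6 were higher and 4 lower (median 0.17). Cyclins D2 and D3 (Ccnd2 0.81, Ccnd3 0.67) and the licensing factor Mcm3 (0.76) were higher, and the mitotic genes Birc5 (-0.91), Ccnb2 (-0.88) and Ube2c (-0.85) with cyclin D1 (Ccnd1, -0.38) were lower. Of 23 other interferon genes tested, 5 were higher and 2 lower (median 0.14), among them the GTPase Irgm1 (1.01, SE 0.14) and the chemokine Cxcl9 (-2.33, SE 0.51).

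**Figure D5:**
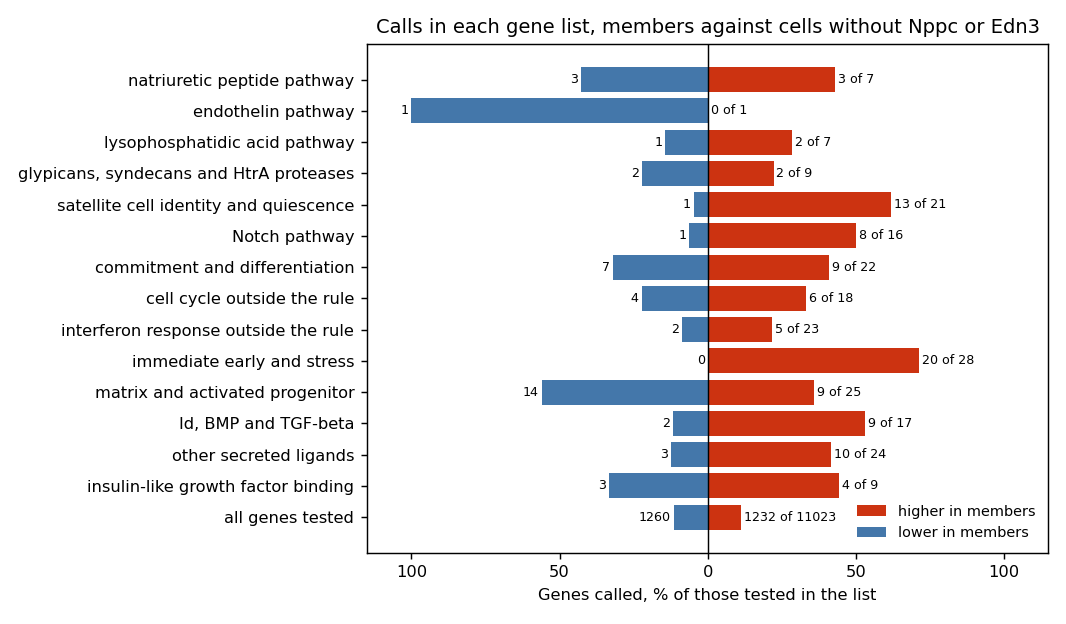
Percentage of the tested genes of each list (vertical axis) called higher or lower (horizontal axis) in ligand-positive than in ligand-negative cells at an edgeR adjusted p under 0.05. Immediate early and stress genes had 20 of 28 higher and 0 lower, against 11.2% higher and 11.4% lower over all genes.

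The rule also set apart Pax7 cells with interferon RNA. The 63 such cells without ligand UMIs (12, 14, 21 and 16 per library) were compared with the ligand-positive cells, with the list of interferon genes left out. Of 8016 genes, 85 were higher (1.06%) and 117 lower (1.46%) in ligand-positive cells. Fos had 1733, 1953, 1866 and 2565 CPM against 314, 278, 338 and 241 CPM (log2 difference 2.78, SE 0.13, edgeR adjusted p = 2.5e-13). Of the 28 immediate early and stress genes, 15 were higher and 4 lower (median 0.92 against 0.00 over all genes).

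Tob1, an antiproliferative factor, differed by 2.23 (SE 0.32), Hey1 by 2.08 (SE 0.36) and Id1 by 1.97 (SE 0.31). The near-identical heat shock genes Hspa1a (2.54, SE 0.30) and Hspa1b (1.99, SE 0.29) were higher too, and reads of these copies may be split uncertainly between them. Lower were Fas, a death receptor, with 12.4, 20.5, 27.6 and 16.6 CPM against 53.7, 57.4, 85.3 and 82.3 CPM (log2 difference -1.86, SE 0.23, edgeR adjusted p = 8.8e-06), the chemokine Ccl2 (-1.71, SE 0.21), Spp1 (-1.68, SE 0.13) and Pfkfb3 (-1.46, SE 0.23), an enzyme that drives glycolysis. Oasl2 (-2.04, SE 0.29) and Eif2ak2 (-1.45, SE 0.27) are induced by interferon and belong to what set these cells apart. Without Pax7Cre replicate 1 the comparison called 118 genes and without miR-501KO replicate 1 it called 85, in place of 202.

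Few genes were called between cells with only Nppc and cells with only Edn3. Of 6354 genes tested, 13 were higher (0.205%) and 10 lower (0.157%) in cells with only Nppc. At an unadjusted p under 0.05 in edgeR there were 610 genes, so the few calls in these small groups do not show that the cells are alike. The marker genes Chodl (log2 difference -0.29, SE 0.16), Gpc3 (-0.22, SE 0.17), Lpar4 (-0.01, SE 0.15) and Htra3 (0.04, SE 0.13) were not called. Apoe, the lipid carrier apolipoprotein E, had 586, 846, 638 and 648 CPM in cells with only Nppc and 1273, 1120, 1756 and 1609 CPM in cells with only Edn3, with no overlap (log2 difference -1.08, SE 0.13, edgeR adjusted p = 3.3e-04).

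Arhgap21, a GTPase-activating protein, had 11.2, 18.6, 12.1 and 10.7 CPM against 38.5, 33.7, 54.9 and 35.3 CPM (log2 difference -1.65, SE 0.31, edgeR adjusted p = 0.018). Egr3 (-1.17), Camk2n1 (-0.90), Txnrd1 (-0.75) and Sparcl1 (-0.71) were lower as well. Higher in cells with only Nppc were the ubiquitin ligase gene Fbxo32, with 58.6, 77.5, 56.5 and 67.6 CPM against 21.6, 49.8, 31.6 and 18.2 CPM (log2 difference 1.14, SE 0.23, edgeR adjusted p = 0.037), the stress gene Ddit4 (1.09, SE 0.20), Acta2 (0.87, SE 0.15), Cxcl1 (0.96, SE 0.21), Hspa1a (1.45, SE 0.29) and Hspa1b (1.39, SE 0.22). The comparison had 13 to 26 cells with only Nppc per library, and 4 calls were left without Pax7Cre replicate 1.

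Within ligand-positive cells, few genes differed between miR-501KO and Pax7Cre. Of 9613 genes tested, 7 were called (0.0728%), 6 higher and 1 lower in miR-501KO. Nr4a1, an immediate early nuclear receptor, had 18.0 and 31.7 CPM in Pax7Cre and 56.2 and 66.8 CPM in miR-501KO (log2 difference 1.28, SE 0.24, edgeR adjusted p = 5.9e-04). Bmp4 had 13.4 and 22.3 CPM against 35.4 and 44.5 CPM (1.14, SE 0.27, adjusted p = 0.040 in edgeR). The libraries of the 2 genotypes did not overlap for either gene, which adds nothing to the calls. With 2 libraries per group, even complete separation gives p = 0.333 in an exact permutation test.

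Ckm had 43.0 and 41.8 CPM against 92.8 and 78.8 CPM (log2 difference 1.01, SE 0.22, edgeR adjusted p = 0.0086) and Tnnc2 had 84.8 and 90.1 CPM against 180 and 140 CPM (0.86, SE 0.20, edgeR adjusted p = 0.031). Both belong to the fast fibre genes, of whose UMIs 3 cells per library held 25.6 to 52.7%, and their differences were 0.21 and 0.19, not called, without cells of 30 or more of these UMIs. Hspa1b differed by 0.84 (SE 0.20), and Hspa1a by 1.04 (SE 0.20) with 135 and 85.2 CPM against 110 and 333 CPM, so that run 1 went the other way. Cxcl2, a neutrophil chemokine, had 13.9 and 54.4 CPM against 6.19 and 19.2 CPM (log2 difference -1.36, SE 0.28, edgeR adjusted p = 0.0045), with overlapping groups.

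None of these 7 calls remained with the run as a block or in DESeq2, where edgeR with the block had 160 genes and DESeq2 42 genes at an unadjusted p under 0.05. The markers Chodl (log2 difference 0.35, SE 0.19), Lpar4 (0.17, SE 0.20), Htra3 (0.04, SE 0.19) and Gpc3 (-0.11, SE 0.19) were not called between genotypes. Of the 28 immediate early genes 3 were called, of the 19 commitment genes 2, of the 16 Id and BMP genes 1 and of the 21 satellite cell genes 0.

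In all 1530 gated Pax7 cells, which the ligands did not choose, Nppc had 16.9 and 16.3 CPM in Pax7Cre and 17.8 and 54.2 CPM in miR-501KO (log2 difference 1.13, SE 0.32, edgeR adjusted p = 0.56). Without miR-501KO replicate 2 the difference was 0.10, and with the run as a block it was 0.95 and called. Edn3 had 20.4 and 23.7 CPM against 16.8 and 32.5 CPM (log2 difference 0.17, SE 0.23), with overlapping groups and no call. The fit called 4 of 12321 genes (0.0325%), all higher in miR-501KO: Crabp1, Thbs4, Ctss and Tnnc2. Of these, Tnnc2 was also called in ligand-positive cells, a part of the same cells. Thbs4, a tenocyte marker, gave 249 UMIs in only 4.46% of ligand-negative cells of miR-501KO replicate 1. In ligand-positive cells Thbs4 reached at most 1.08 unscaled CPM in a library, and the macrophage gene Ctss at most 3.51 CPM. The part of other cell types in these calls was not tested.

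Whether the genotype difference itself differed between ligand-positive and ligand-negative cells was tested by an interaction term. Of 11602 genes, 4 were called (0.0345%). Ccl11, the chemokine eotaxin, had 20.5, 57.3, 34.9 and 29.2 CPM in ligand-positive cells and 1.20, 4.27, 21.0 and 4.31 CPM in ligand-negative cells (difference of log2 differences -2.29, SE 0.43, edgeR adjusted p = 0.040). The others were the macrophage genes Ctss, C1qb and Gpnmb, whose levels in ligand-positive cells were at most 7.60 CPM.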

How the data were processed

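The UMI counts per gene and barcode were deposited by the authors without normalization. Cell Ranger 6.0.2 is named in the file headers, in another version than the study gives, and the build GRCm39 in the submitters' processing notes. The 25827 listed genes included 22 symbols used by more than 1 gene, which were kept apart by identifier. Cells were chosen as described above. The members and gene lists were chosen with earlier results of these data known. UMIs were summed per library and cell group, since cells are not replicates, and tested with edgeR 4.0.16 (filterByExpr, TMM, glmQLFit, glmQLFTest; R 4.3.3, limma 3.58.1) at a Benjamini-Hochberg adjusted p under 0.05. Comparisons of cell groups carried the library as a term, and comparisons of genotypes carried none. The fits were tested on simulated data. No doublet caller was run. Per the labels doublets were excluded in the sort, which does not remove droplets that captured several cells, and an alternative dropped the 5% deepest cells per library. Macrophage, mural and Schwann cells were marked by at least 10 UMIs of their lists.

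Named genes were the 7 markers, the detected natriuretic and endothelin genes, up to 12 genes per direction with the largest change among called genes at a mean of at least 5 log2 CPM that moved alike in all 4 libraries, up to 6 per direction in the other comparisons of cells, up to 5 for genotype and 3 for the interaction, and up to 4 per list. Further genes were named after their values were seen, and some that the rule picks are not reported here. Per-library CPM are scaled by TMM unless called unscaled.

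Replicates of a genotype differed beyond sampling noise (chi-square per gene 4.86 for Pax7Cre and 5.95 for miR-501KO). Per the labels the replicate number marks a shared run, and the run 1 minus run 2 differences of the genotypes correlated at -0.13 across 9637 genes, which are not independent replicates. Alternatives were DESeq2 1.42.0, RLE size factors, no filter on low counts, other ligand limits, depth windows, thinning to 5000 UMIs, at most 5% mitochondrial UMIs, cells without macrophage RNA, the replicate block and leaving out each library. Crossed pairing and a limit of 30 fast fibre UMIs were added after seeing the data. Python 3.11.15, numpy 2.4.6, scipy 1.17.1, pandas 2.3.3 and matplotlib 3.10.9 were used.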

Additional observations from a re-analysis of the deposited data

Results flagged for a closer look

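The 4 genes named here had a genotype difference that differed between ligand-positive and ligand-negative cells by the interaction test in edgeR. Ctss, a lysosomal protease of macrophages, had 3.51 and 1.62 CPM in ligand-positive cells of Pax7Cre and 0 and 0.32 CPM in those of miR-501KO, while ligand-negative cells had 5.06 and 0.80 CPM against 26.8 and 23.9 CPM (difference of log2 differences -6.68, SE 1.04, adjusted p = 0.0082). C1qb, a complement subunit of macrophages, had 7.60, 2.03, 1.13 and 0.95 CPM in ligand-positive and 23.8, 3.07, 33.2 and 43.5 CPM in ligand-negative cells (-3.85, SE 0.63, adjusted p = 0.011 in edgeR). Gpnmb, a glycoprotein of macrophages, had 5.26, 2.84, 2.82 and 1.59 CPM against 3.33, 3.60, 8.59 and 49.3 CPM (-4.16, SE 0.75, adjusted p = 0.027 in edgeR). Macrophage markers summed over ligand-negative cells to 205, 23.2, 368 and 286 CPM, and the part of macrophage RNA in the result was not tested. Ccl11 had 20.5, 57.3, 34.9 and 29.2 CPM in ligand-positive and 1.20, 4.27, 21.0 and 4.31 CPM in ligand-negative cells (-2.29, SE 0.43, adjusted p = 0.040 in edgeR). The fibroblast marker Dcn stood at 3.72, 8.85, 65.6 and 5.49 unscaled CPM in ligand-negative cells, highest in the same library as Ccl11. The part of fibroblast RNA in the Ccl11 result was not tested. Groups of 2 libraries are too small for a test of single outlying libraries.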

How the results depend on the processing

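For ligand-positive against ligand-negative cells, the 2492 calls became 1264 with no replicate block, 1261 with DESeq2, 1513 among cells of 15000 to 40000 UMIs and 525 after thinning to 5000 UMIs, of which 1264, 1261, 1464 and 501 were shared with the same direction. Leaving out each library gave 1750 to 2139. Against interferon-high cells it gave 85 to 201 calls. Between cells with only Nppc and only Edn3 it gave 4 to 35, and no filter on low counts gave 73 calls in place of 23. For genotype in ligand-positive cells, the 7 calls became 0 with the replicate block, with DESeq2, at limits of at least 1 or at least 3 ligand UMIs (245 and 263 genes at an unadjusted p under 0.05 in edgeR), after thinning (128), at most 5% mitochondrial UMIs (183) and fewer than 30 fast fibre UMIs (213). They became 1 without macrophage RNA, 4 at 15000 to 40000 UMIs, 11 with crossed pairing and 4 to 14 when a library was left out (4 without Pax7Cre replicate 1, 11 without Pax7Cre replicate 2 and 14 without miR-501KO replicate 2). In gated Pax7 cells the 4 calls became 86 without the filter, 49 with the replicate block, 59 with crossed pairing and 35 to 149 when a library was left out. The interaction gave 28 calls without the filter and 5 to 31 without a library (31 without Pax7Cre replicate 1 and 29 without Pax7Cre replicate 2). The difference in share was 0.483 and 8.35 points within runs 1 and 2, and within run 1 it was -4.11 at 1 ligand UMI, -1.66 after thinning and -0.0027 with fewer than 30 fast fibre UMIs, with up to 11.5 within run 2. Direction turned for Ckm (-0.17) and Tnnc2 (-0.10) between genotypes at most 5% mitochondrial UMIs, for Cxcl2 (0.53) with fewer than 30 fast fibre UMIs and for Edn3 in gated cells (-0.40) without miR-501KO replicate 2, where leaving out other libraries gave up to 0.56. Of 789 values of named genes under the alternatives, 655 kept direction and call, 124 lost the call, 6 gained it and these 4 turned. For the 23 genes of the first comparison, 366 kept both and Lyz2 lost its call at 15000 to 40000 UMIs. The causes were not tested. Crossed pairing and the fast fibre limit were chosen after seeing the data. Groups of 63 to 141 ligand-positive cells per library limit what low genes such as Calcr, Ednra and Npr3 can show.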
